A study of Mus musculus with 6 samples.

Results

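The enzymes that make heme and the heme oxygenases that break it down were examined in hippocampus of Phf8 knockout (KO) and wild-type (WT) mice. The members are Alas1, Alad, Uros, Urod, Cpox, Ppox, Fech, Hmox1 and Hmox2, chosen as heme pathway genes expressed in all tissues, so that the erythroid Alas2 is not among them. Of 45037 probe sets on the arrays, 20 carry 1 of these 9 gene symbols and no other. Of these, 16 had a signal above the filter described next, and they cover 8 of the 9 genes. The samples are 3 WT and 3 Phf8 KO hippocampi at an age of 10 weeks on a C57BL/6 strain background, each hybridised to 1 Affymetrix mouse array. By the study's methods, the allele was made on another strain background and then backcrossed to C57BL/6 J. Any effect of the first background was not tested. The KO allele lacks the exons that encode the JmjC demethylase domain, deleted throughout the body with EIIa-Cre, a Cre transgene active in the early embryo, and the study used male mice and their WT littermates. Because its methods speak of tissue from several mice as a sample, an array may hold RNA of 1 mouse or of pooled mice, and p-values measure the spread between these samples.

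Heme is the iron-containing ring that carries electrons in cytochromes and oxygen in globins, and every cell with mitochondria makes it. Synthesis starts inside mitochondria, where 5-aminolevulinate is formed from glycine and succinyl-CoA, continues in the cytosol up to coproporphyrinogen, and ends in mitochondria with the insertion of iron. Heme oxygenases open the ring and release biliverdin, carbon monoxide and iron, and in neurons the constitutive heme oxygenase is the main form.

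Signals are log2 MAS5 values, and a probe set was kept when it exceeded the 40th percentile of its array, a log2 level of 5.73 to 6.05, on at least 3 of the 6 arrays. Phf8 itself checked the labels: its bright probe set read 9.90, 9.66 and 9.73 in WT and 8.23, 8.55 and 7.99 in KO. In limma over genes this difference of -1.51 had an adjusted p of 0.0527 with all 6 arrays, above the threshold of 0.05. Without KO replicate 3 it passed (0.00378). In limma over probe sets with all 6 arrays its adjusted p was 0.124. The other Phf8 probe sets did not pass the filter, and their groups overlapped. KO replicate 3 stood apart. Its correlation with the other arrays across genes was 0.925 to 0.940, against 0.976 or more among those 5. Relative to the WT arrays, 9 measured thalamus markers had a median of 2.73 on that array, where KO replicates 1 and 2 had 0.29 and 0.12, and 10 markers of hippocampal principal cells had a median of -0.44. All 10 of those hippocampal markers were above the filter. The fits were therefore run with and without KO replicate 3, and the figures of differences show both. In the text, some differences are given with all 6 arrays only.

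Fech, the ferrochelatase that inserts iron into protoporphyrin, showed the largest difference of the 8 measured genes, and it was lower in KO hippocampus. With all 6 arrays, limma called none of the 8 at an adjusted p under 0.05, where it called 0.062% of 12903 genes. Without KO replicate 3, Fech passed and the other 7 did not, against 0.411% of all genes. At an unadjusted p under 0.05 the count was 1 of 8, again Fech, beside 7.48% of all genes, and Fech was also the only one of the 8 at a fold of 1.5, beside 6.18% of all genes. WT and KO arrays did not overlap for 3 of the 8 genes, Alad, Uros and Fech, beside 16.7% of all genes. On average 6 of the 8 genes were lower in KO and 2 higher, beside 6206 lower and 6697 higher of all 12903 genes. The signs of Urod and Ppox changed under some alternatives, and of the 16 kept probe sets 9 were lower and 7 higher. The median difference of the 8 genes was -0.09 on the log2 scale against 0.01 over all genes. Without KO replicate 3 it was -0.06 against 0.03. Counted over probe sets, 0 of 16 passed (0.0219% of all kept probe sets did) and WT and KO did not overlap for 6 of 16, beside 15.2% of all kept probe sets.

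**Figure D1:**
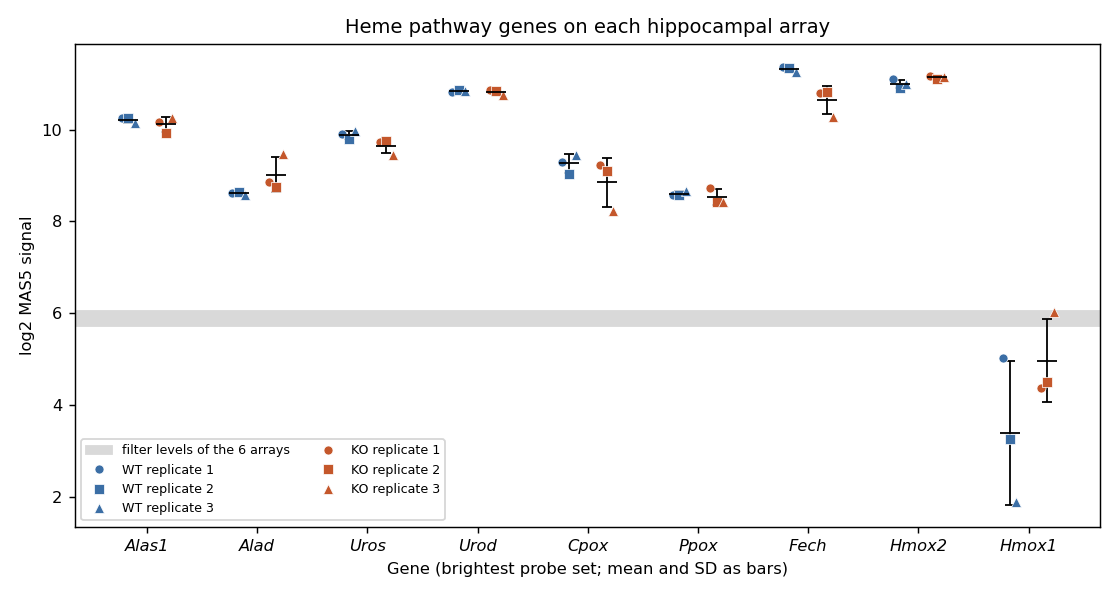
Log2 MAS5 signal (y axis) of the brightest probe set of each of the 9 genes (x axis) on the 3 WT and 3 KO arrays, where bars give group means with their SD and the 6 filter levels fall in the grey band. Signals of different genes are not comparable with each other. The Fech points of the KO arrays, 10.28 to 10.83, lie below those of the WT arrays, 11.25 to 11.37, and Hmox1 lies below the filter level of its array on all 6 arrays.

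The first enzyme, Alas1, condenses glycine and succinyl-CoA and sets the rate of heme synthesis outside red cell precursors. Its bright probe set read 10.26, 10.26 and 10.13 in WT and 10.16, 9.92 and 10.25 in KO, so that the groups overlapped. The difference was -0.11 (standard error 0.13, adjusted p = 0.829 from limma), with a 95% interval of -0.40 to 0.19. The dimmer Alas1 probe set read 8.40, 8.26 and 8.56 in WT and 8.18, 8.10 and 7.88 in KO, where every KO array was below every WT array, but it did not pass either (-0.35, adjusted p = 0.782 over probe sets). Alas2, which catalyses the same reaction in red cell precursors, behaved differently on the same arrays. It read 10.43, 10.39 and 10.15 in WT and 6.63, 4.62 and 4.65 in KO, a fall that passed over genes (-5.02, adjusted p = 0.0366) and not over probe sets (adjusted p = 0.0760). Since 2 of its 3 KO values lie below the filter level, the size of the difference depends on the background, and it was -4.13 with 32 signal units added before log2.

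The promoters of these isozyme genes are shown as a description. Whether their sequence relates to the differences of Alas1 and Alas2 was not tested. Each is a stretch of 30 bases from RefSeq (build GRCm38.p6), written 5′ to 3′ on the strand of the gene, with capitals marking the motif found. For Alas1 (chr9:106247907-106247936, minus strand) the capitals are a match to GCGCNTGCG, the motif of the transcription factor NRF1, and it lies between the 2 annotated starts of the gene. For Alas2 (chrX:150547319-150547348, plus strand) they are a match, on the opposite strand, to AGATAA, the motif of GATA factors, which drive red cell genes.
Alas1: ccgcacccaagGCGCATGCGcggcggtcac
Alas2: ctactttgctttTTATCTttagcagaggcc
Both strands were searched in windows of 300 bases around each annotated start. The NRF1 letters stand in 6.31% and the GATA letters in 11.2% of all 32851 windows, or in at least 1 window of 7.12% and 12.7% of 27025 genes, and the NRF1 match in Alas1 overlaps a match on the other strand. Of the 7 members in that table, Alas1 and Uros hold the NRF1 letters and Cpox the GATA letters. Fech and Hmox1 have no entry there. A match is only a description of these letters, and no binding was measured here.

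Of the cytosolic enzymes, the bright probe set of Alad was higher and that of Uros lower on every KO array, and neither passed. Of all genes, 16.7% did not overlap either. The groups overlapped for Urod and for the second probe set of each enzyme. Alad joins 2 molecules of aminolevulinate into porphobilinogen. Its bright probe set read 8.63, 8.64 and 8.59 in WT and 8.86, 8.74 and 9.46 in KO, with KO replicate 3 highest. The difference of 0.40 (standard error 0.20, adjusted p = 0.673) became 0.18 without KO replicate 3 (adjusted p = 0.518). The dimmer Alad probe set read 6.70, 6.08 and 6.14 in WT and 6.67, 6.45 and 6.74 in KO, a difference of 0.31, and its groups overlapped.

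Uros closes the linear tetrapyrrole into the ring uroporphyrinogen III. It read 9.89, 9.79 and 9.96 in WT and 9.73, 9.75 and 9.46 in KO, a difference of -0.23 (adjusted p = 0.684), or -0.14 without KO replicate 3. WT replicate 2 and KO replicate 2 lay close together, so that the gap between the groups was narrow. The dim second probe set, above the filter on 3 arrays, read 5.96, 5.18 and 6.42 in WT and 6.70, 5.68 and 5.63 in KO, and its groups overlapped. Its difference was 0.15, opposite in sign to the bright one, and the mean of both Uros probe sets differed by -0.04.

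Urod, which removes the carboxyl groups of the acetate side chains, had the narrowest interval. Its bright probe set read 10.82, 10.87 and 10.83 in WT and 10.86, 10.85 and 10.75 in KO. The difference was -0.02 with a 95% interval of -0.25 to 0.21, which leaves out a fold of 1.5 in either direction. The second Urod probe set read 8.90, 8.78 and 8.48 in WT and 8.85, 8.69 and 9.21 in KO, a difference of 0.19, and it overlapped too.

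In the mitochondrial steps before iron insertion, no probe set of Cpox or Ppox passed. Cpox oxidises coproporphyrinogen to protoporphyrinogen. Its bright probe set read 9.30, 9.04 and 9.44 in WT and 9.23, 9.09 and 8.24 in KO, so that KO replicate 3 alone lay below the WT arrays. The difference of -0.41 (standard error 0.27, adjusted p = 0.711) shrank to -0.10 without that array. The second Cpox probe set read 7.71, 7.64 and 7.40 in WT and 7.36, 7.52 and 8.41 in KO, so that KO replicate 3 lay above the WT arrays there, and its mean difference was 0.18, or -0.15 without that array. Another, at 5.09 to 5.71, did not pass the filter.

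Ppox makes protoporphyrin IX from protoporphyrinogen. Its bright probe set read 8.57, 8.57 and 8.67 in WT and 8.73, 8.43 and 8.43 in KO, a difference of -0.07 with a 95% interval of -0.41 to 0.26. A dim Ppox probe set near the filter level read 6.01, 5.53 and 5.98 in WT and 6.20, 6.25 and 7.26 in KO. There every KO array was above every WT array, with a difference of 0.73 that did not pass (adjusted p = 0.782 over probe sets) and was 0.38 without KO replicate 3. Another, at 2.23 to 5.77, did not pass the filter. The kept probe sets of Ppox thus differ in sign with all 6 arrays and without KO replicate 3, while those of Cpox differ in sign with all 6 arrays and are both lower in KO without that array.

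**Figure D2:**
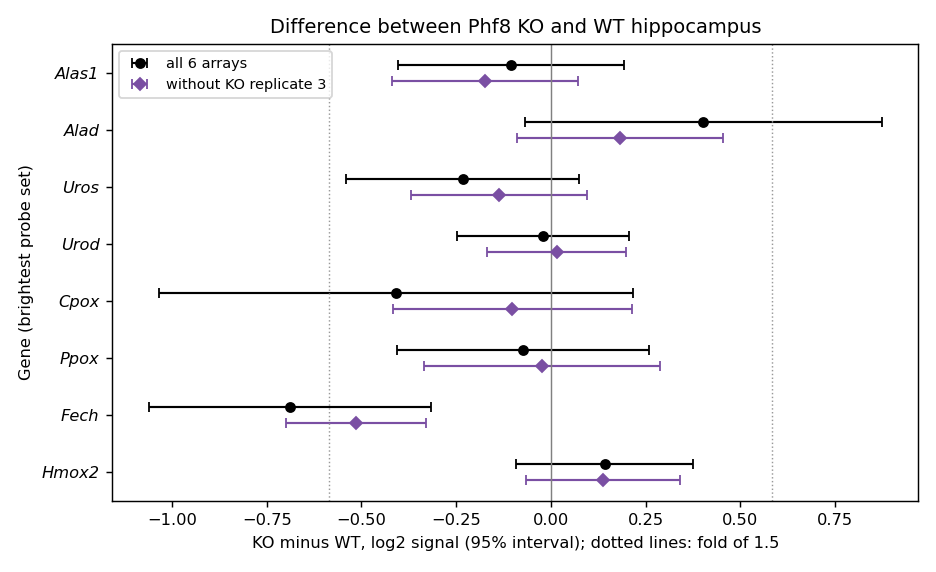
Difference between KO and WT in log2 signal (x axis) for the brightest probe set of each measured gene (y axis), with its 95% interval from limma, over all 6 arrays (circles) and without KO replicate 3 (diamonds). The interval of Fech lies below 0 in both fits, at -1.06 to -0.32 and at -0.70 to -0.33, and those of the other 7 genes include 0.

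Fech, the last enzyme of the pathway, had 3 bright probe sets, and 2 of them were lower on every KO array. Among all kept probe sets, WT and KO did not overlap for 15.2%. The brightest Fech probe set read 11.37, 11.35 and 11.25 in WT and 10.79, 10.83 and 10.28 in KO. All 3 KO values lie below the WT range, with KO replicate 3 lowest. The means were 11.32 ± 0.06 (SD, n = 3) and 10.63 ± 0.30 (SD, n = 3), a WT level 1.61-fold that of KO. The difference of -0.69 (standard error 0.16) had an unadjusted p = 0.00302 and an adjusted p = 0.493 in limma over genes. Without KO replicate 3, which widens the KO spread, it was -0.51 (standard error 0.08) and passed (adjusted p = 0.0406). With arrays weighted by their spread it was -0.56 and passed as well (adjusted p = 0.0229), in a fit where 0.891% of all genes passed.

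A second Fech probe set read 10.88, 10.85 and 10.87 in WT and 10.29, 10.21 and 9.37 in KO, again with no overlap. Its difference was -0.91 (adjusted p = 0.773 over probe sets), and without KO replicate 3 it was -0.62 and passed (adjusted p = 0.0377), as 0.234% of all kept probe sets did. In that fit over probe sets the brightest one had an adjusted p = 0.0631. The third read 10.99, 10.91 and 10.86 in WT and 10.74, 11.07 and 9.95 in KO, where KO replicate 2 lay above all WT arrays. Its difference was -0.33, and -0.01 without KO replicate 3. The remaining Fech probe set, at 1.62 to 5.94, was below the filter on all 6 arrays.

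Set against the third probe set on the same array, a comparison chosen after these values were seen, both others were lower relative to it in KO. The brightest minus the third was 0.38, 0.44 and 0.39 in WT and 0.04, -0.24 and 0.33 in KO. The second minus the third was -0.11, -0.06 and 0.01 in WT and -0.46, -0.86 and -0.58 in KO. The groups do not overlap in either, and both have p = 0.1 in an exact two-sided permutation test, the smallest p that 3 against 3 samples can give. Which part of the Fech transcript each probe set reads was not analysed here.

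**Figure D3:**
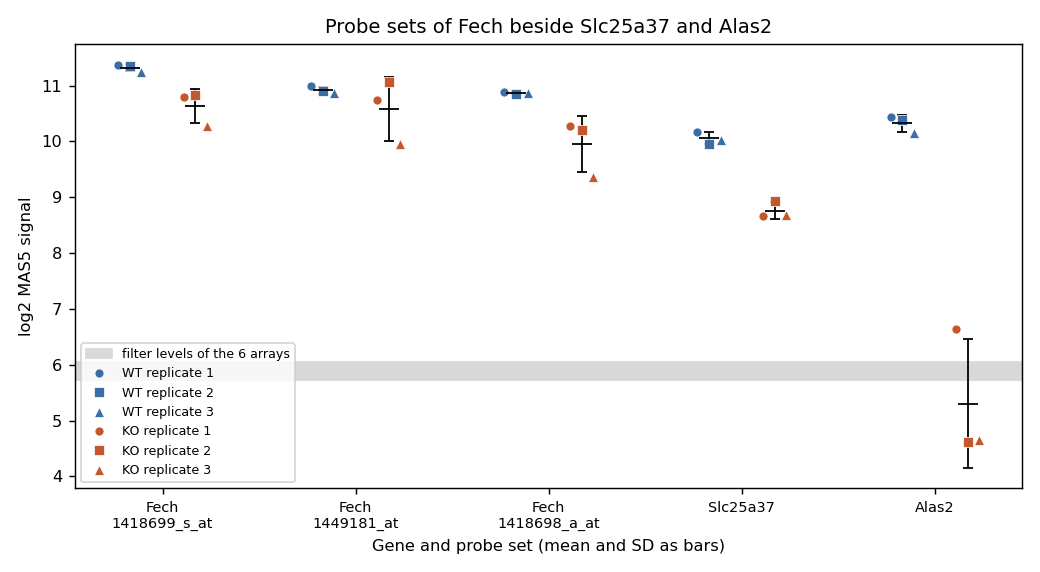
Log2 MAS5 signal (y axis) of the 3 kept Fech probe sets, Slc25a37 and Alas2 (x axis), 1 point per array, where bars give group means with their SD and the filter levels fall in the grey band. For the Fech probe sets with WT means of 11.32 and 10.87 all KO points lie below the WT points, while for the one with 10.92 KO replicate 2 (11.07) lies above them, and 2 KO points of Alas2 lie below the band.

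Some red cell genes were called lower in KO. Slc25a37 is a mitoferrin, a carrier of iron into mitochondria, and is known to bind ferrochelatase in red cell precursors. It read 10.18, 9.96 and 10.03 in WT and 8.66, 8.94 and 8.69 in KO. It fell by 1.29 (adjusted p = 0.0366 over genes), a call that was lost in the fit over probe sets (0.0855), with quantile normalization (0.0680), median centring (0.0776), a variance without trend (0.0891) or the replicate block (0.169). The bright probe set of Hbb-b2, which encodes a beta globin chain, fell by 3.53 (adjusted p = 0.0285), with all KO values under the filter level. The size therefore depends on the background, and it was -2.73 with 32 signal units added before log2. This probe set may read near-identical globin transcripts too. A dim second probe set of Hbb-b2 differed by 0.11, and the mean of both probe sets by -1.71 (adjusted p = 0.277). Of 14 erythroid markers, 10 have probe sets of their own here and 5 were above the filter, of which 4 were lower. Of the 5, 2 passed, Alas2 and Hbb-b2, beside 0.062% of all genes. The bright probe sets of Hbb-b2 and Slc4a1 were above the filter on the 3 WT arrays only, and Alas2 on those and KO replicate 1. The filter kept these genes through their WT values, so the count of lower markers does not test the set. Hba-a2 differed by -0.38 and Ermap by 0.36, and the groups overlapped for both. The summed linear signal of the 5 measured markers was 1899 to 2120 on the WT arrays and 175 to 300.5 on the KO arrays. Alas2 weighs most in the WT sum, with a mean log2 signal of 10.32 against 8.77 for Hbb-b2 and 7.45 for Slc4a1. The KO sum holds values under the filter level, so the sum is no separate result beside Alas2. Klf1, Epb42, Rhag, Tspo2 and Hba-a1 did not pass the filter. The part of red cell RNA in the Fech difference was not tested, and in whole hippocampus fewer cells of a type and less RNA per cell cannot be told apart. Of the 13 measured carriers and transporters in the list of Slc25a37, 6 were higher in KO and 7 lower. Abcb10, a mitochondrial transporter of that list known to bind Slc25a37, was named after its values were seen. It was higher on every KO array (0.28, adjusted p = 0.673), where 16.7% of all genes did not overlap. The gap was very narrow, since KO replicate 2 and WT replicate 2 both read 9.47. Its dimmer kept probe set differed by 0.25 and overlapped.

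Over the 6 arrays, the genes whose pattern was most like that of Fech were Pebp1, Rhot1 and Ahctf1. Pebp1 had Pearson's r = 0.9996 with Fech over the 6 arrays, Rhot1, a GTPase gene of mitochondrial transport, 0.997, and Ahctf1, a nuclear pore gene, 0.995. They were picked as the highest of all genes, and all 4 share the step between the genotypes and a lowest value in KO replicate 3. Their own differences were smaller than that of Fech, at -0.20, -0.29 and -0.37.

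The heme oxygenases differed in how far they could be measured. Hmox2, the constitutive enzyme, read 11.09, 10.90 and 10.98 in WT and 11.17, 11.09 and 11.14 in KO. The groups overlapped narrowly, since KO replicate 2 and WT replicate 1 both read 11.09. The difference was 0.14 (standard error 0.10, adjusted p = 0.727), and its 95% interval of -0.09 to 0.38 leaves out a fold of 1.5. It was also 0.14 without KO replicate 3. Hmox1, the stress-induced enzyme, read 5.02, 3.27 and 1.90 in WT and 4.38, 4.52 and 6.02 in KO. All 6 values are below the filter level of their array, so its single probe set was not tested and gives no level in either genotype.

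Around the pathway, 42 of 50 genes in 6 related lists were measured, and 1 of them, Slc25a37, passed, beside 0.062% of all genes. On average 23 were higher and 19 lower in KO, with a median difference of 0.03 against 0.01 over all genes, and WT and KO did not overlap for 10, beside 16.7% of all genes. The biliverdin reductases Blvra and Blvrb, which turn biliverdin into bilirubin, differed by 0.18 and 0.04. Of the other 12 mitochondrial carriers and heme or porphyrin transporters none passed, and the list ran from -1.29 to 0.28. Slc25a28, another mitochondrial carrier in that list, differed by -0.003 (adjusted p = 0.998), and its groups overlapped. Cox10, which makes heme o on the way to heme a, and Hccs, which attaches heme to cytochrome c, differed by -0.15 and 0.06.

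Among 11 regulators and heme sensors 0 passed in limma and 0 had an unadjusted p under 0.05. Eif2ak1, the heme-regulated kinase of translation initiation, had means of 8.03 ± 0.03 (SD, n = 3) in WT and 8.28 ± 0.20 in KO. Its brightest probe set was higher on every KO array, a difference of 0.25 (adjusted p = 0.700), where 16.7% of all genes did not overlap. The other kept probe sets differed by 0.19 and 0.01 with overlap, and the mean of the kept ones by 0.15. A dim one that did not pass the filter was lower on every KO array, with means of 6.20 in WT and 5.47 in KO. Nrf1, the gene of the factor whose motif stands in the Alas1 promoter, differed by -0.27 with overlap (adjusted p = 0.709). Its other kept probe sets differed by -0.11, -0.16 and 0.13, also with overlap, and the mean of the kept ones by -0.11. Of 8 measured target genes of NRF2, the stress factor that induces Hmox1, 5 were higher and 3 lower and none passed. Mgst1, a microsomal glutathione transferase, read 10.01, 10.20 and 9.95 in WT and 10.57, 10.53 and 11.27 in KO (0.74, adjusted p = 0.563). Fth1, the ferritin heavy chain that stores iron, read 14.67 to 14.75 in WT and 14.55 to 14.62 in KO (-0.11, adjusted p = 0.659), near the top of the signal range.

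Of the other heme proteins, Ngb, the neuronal globin, read 6.86, 6.50 and 7.09 in WT and 7.42, 7.58 and 9.55 in KO. All KO arrays lie above the WT arrays, yet the difference of 1.36 (adjusted p = 0.659) became 0.68 without KO replicate 3 and passed in neither fit. Hebp2, a heme-binding protein gene, differed by 0.33 (adjusted p = 0.673).

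**Figure D4:**
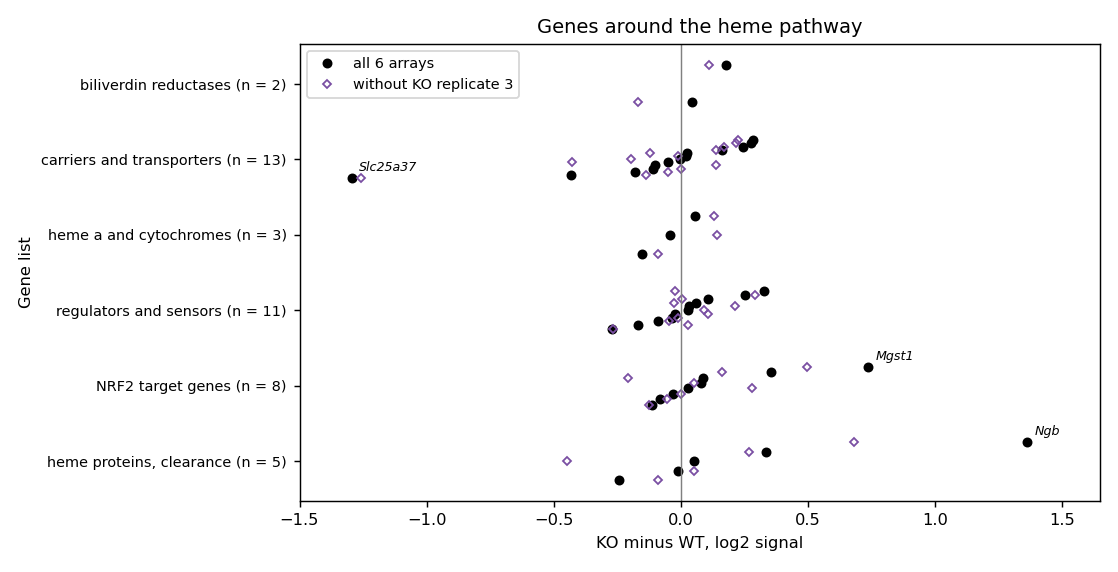
Difference between KO and WT in log2 signal (x axis) for the 42 measured genes of the 6 related lists (y axis), over all 6 arrays (circles) and without KO replicate 3 (diamonds). Slc25a37 lies at -1.29 and -1.26, and Ngb moves from 1.36 to 0.68 when KO replicate 3 is left out.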

How the data were processed

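Hippocampal RNA of 3 WT and 3 Phf8 KO samples was hybridised to Affymetrix mouse arrays. The values deposited by the authors are log2 MAS5 signals. The submitters' notes list affy beside MAS5 and give no version of either. The authors' scaling leaves a trimmed mean linear signal of 497.5 to 498.2 on each array. Detection calls were not used here, and a percentile filter stands in for the authors' filter on Absent calls. A platform annotation table names exactly 1 gene for 34945 probe sets.

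Differences between KO and WT came from limma 3.58.1 under R 4.3.3 (lmFit, eBayes with trend), over 12903 genes, each by its brightest kept probe set, and over 27408 kept probe sets, with Benjamini-Hochberg adjustment over all of them. The fit was tested on simulated data with known changes. With 3 arrays per group, their number limits the precision.

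Named are all members, Phf8, Alas2, Hbb-b2, Slc25a37, the genes of each related list past the threshold or else the 2 with the smallest p, and the 3 genes most like Fech. Abcb10, Slc25a28 and the erythroid markers other than Alas2 and Hbb-b2 were named after their values were seen. The members and lists were chosen with earlier results of these data known.

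The alternatives tried were normalization by quantiles or by median centring, no filter and a filter at the 60th percentile, 32 signal units added before log2, a variance without trend, weights per array, a block for the replicate number, the mean of a gene's probe sets and leaving out each array. The default estimate of the array weights stopped before it converged, so the gene-by-gene estimate was used, chosen after the data were seen.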

Additional observations from a re-analysis of the deposited data

How the results depend on the processing

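Fech kept its direction under all alternatives tried, between -0.79 and -0.51, with an adjusted p of 0.0229 to 0.988, and passed with array weights and without KO replicate 3. No other member gene passed under any of them. Of 120 values of the 8 member genes under the alternatives, 5 changed sign. Urod was higher by 0.0156 with array weights and by 0.0867 as the mean of its probe sets, and ran from -0.0421 to 0.0150 when each array was left out. Ppox was higher by 0.0636 and 0.328 in the first 2 of these settings. The dimmer Cpox probe set had -0.20 with array weights and -0.15 to 0.38 without single arrays, and the dimmer Uros probe set -0.20 to 0.43. Blvrb had -0.0399 with array weights and -0.17 to 0.21 without single arrays, Hccs -0.00292 as the mean of its probe sets and -0.0697 to 0.131 without single arrays, and Fth1 0.0184 after quantile normalization.

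The number of genes that passed was 8 with all arrays, 0 with a variance without trend, 115 with array weights, and 0 to 53 without single arrays. Over probe sets it was 6, and 1 without the filter, 0 without trend, 307 with array weights and 0 to 64 without single arrays. Of the members 1 gene, Fech, passed with array weights, and 0 to 1 without single arrays. Of the related genes 0 passed with quantile normalization, median centring, no trend or the block, and 0 to 1 without single arrays, Slc25a37 being the 1 without KO replicate 3. Genes at a fold of 1.5 numbered 797, and 3313 without the filter, 321 at the 60th percentile, 455 with the offset and 650 to 1473 without single arrays. Genes without overlap numbered 2154, and 1374 after median centring and 2757 to 4511 without single arrays. Leaving out an array can only raise this count, since groups without overlap stay apart. Slc25a37 passed without KO replicate 3, but not when any other array was left out (adjusted p = 0.0766 to 0.467). Hbb-b2 behaved likewise (0.0555 to 0.316) and was -1.71 as the mean of its probe sets (0.277), and Alas2 lost its call without KO replicate 2 or any 1 WT array (0.122 to 0.401). The contrasts between Fech probe sets stayed below 0 when each array was left out, at -0.50 to -0.22 and at -0.67 to -0.47. Apart from the rise in genes without overlap, the causes of these changes were not tested.

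With the replicate block, 4 genes and 2 probe sets passed, and Fech had an adjusted p of 0.546. The labels do not pair WT and KO samples by number, and arrays of equal number deviated together at r = -0.04, 0.07 and 0.13 across genes.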
